A study of Mus musculus with 15 samples.

Results

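The 9 integrin subunit genes described here were Itga4, Itga6, Itga9, Itgal, Itgav, Itgb1, Itgb3, Itgb5 and Itgb7, 5 alpha and 4 beta subunits out of 32372 genes in the count matrix. They were taken by name, with no threshold on a measured value. Brain cells of 15 male hTfR KI mice on C57BL/6J, aged 3.5 months, were taken from cortex and hippocampus of a hemibrain, enriched with CD45 beads and profiled by 3′ single-cell RNA sequencing. All groups, controls included, carry this knock-in of human transferrin receptor sequence, to which the ATV antibodies bind, and 4D9 is an antibody to mouse TREM2, a receptor of microglia. Each mouse received a single dose of 10 mg/kg. The groups, with 3 mice each, were ATV:RSV at day 1, the control antibody, and ATV:4D9 at days 1, 7, 14 and 28. No control mouse was sampled after day 1, so that antibody and time since the dose cannot be told apart at days 7, 14 and 28, and the 4 comparisons with ATV:RSV share the same 3 control mice.

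Integrins are receptors made of 1 alpha and 1 beta subunit that hold cells to the extracellular matrix and to other cells and signal across the membrane in both directions. The beta subunit recruits talin and kindlin on the inner side, which switches the receptor to its binding form, and the pairing sets the ligand. Microglia are known for the pair of Itgam and Itgb2, which is complement receptor 3, and for αv integrins, which bind proteins with an RGD sequence and can release TGF-β from its latent form. α4 and αL integrins are better known on circulating leukocytes, where they bind VCAM-1, MAdCAM-1 and ICAMs.

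In mm10 with the GENCODE M21 annotation, Itgb5 lies at chr16:33829665-33949338, Itgb1 at chr8:128685654-128733200, Itgav at chr2:83724397-83806916, Itga6 at chr2:71745616-71858416 and Itga9 at chr9:118606690-118901003. Itgb3 lies at chr11:104608000-104670476, Itga4 at chr2:79255426-79333123 and Itgal at chr7:127296260-127335138. All of these are on the plus strand, and Itgb7, at chr15:102215995-102231944, is on the minus strand. Each of the 9 is a protein coding gene in that annotation, and 3′ reads represent it by its transcript ends. Itga4 overlaps Cerkl, and Itga9 and Itgav overlap noncoding genes or pseudogenes, in each case on the opposite strand. Itga6 overlaps such genes on both strands. Reads shared with overlapping genes, if any, were not examined here. A RefSeq promoter window (GRCm38.p6) was on hand for 6 of the 9 members. That of Itga9, chr9:118711442-118711691, lies inside the gene as placed above and not before its annotated start. The 250 bases before the start are printed for Itgb5, the member with the highest level, which fell at day 1 on the TMM scale, and for its partner Itgav and for Itgb1, which were higher on that scale and not with library size alone. Capitals mark matches on either strand to GGGCGG (SP1) or GAGGAAG (PU.1). The windows are chr16:33829415-33829664, chr8:128685404-128685653 and chr2:83724147-83724396, all on the plus strand.
Itgb5: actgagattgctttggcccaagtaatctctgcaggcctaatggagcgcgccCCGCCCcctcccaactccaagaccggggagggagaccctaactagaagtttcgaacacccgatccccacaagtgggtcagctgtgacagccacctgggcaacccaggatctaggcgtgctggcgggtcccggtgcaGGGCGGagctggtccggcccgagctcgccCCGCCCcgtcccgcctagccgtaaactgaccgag
Itgb1: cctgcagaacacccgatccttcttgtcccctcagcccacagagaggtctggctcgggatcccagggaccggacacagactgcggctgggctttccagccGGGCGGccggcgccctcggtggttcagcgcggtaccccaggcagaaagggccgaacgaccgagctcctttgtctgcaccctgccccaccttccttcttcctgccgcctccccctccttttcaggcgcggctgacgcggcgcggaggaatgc
Itgav: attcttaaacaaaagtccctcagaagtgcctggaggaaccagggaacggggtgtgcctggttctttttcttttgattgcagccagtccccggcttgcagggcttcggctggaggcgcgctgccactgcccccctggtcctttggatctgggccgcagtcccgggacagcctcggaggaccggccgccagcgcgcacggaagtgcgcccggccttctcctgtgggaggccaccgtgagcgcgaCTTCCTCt
The Itgb5 window held 3 SP1 matches, which begin 199, 63 and 34 bases before the start. The Itgb1 window held 1 SP1 match, 151 bases before the start, and the Itgav window 1 PU.1 match, 8 bases before it. No printed match overlaps another motif searched. SP1 letters are in 32.7% and PU.1 letters in 10.6% of all 32851 windows of this length, RUNX letters (TGTGGTT) in 4.4% and AP-1 letters (TGANTCA) in 6.75%. No member window held a RUNX or AP-1 match. A match is a string of letters and was not tested as a binding site.

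The matrix held 102043 cells, 5667 to 7596 per mouse, with 32341960 to 70307384 UMIs (unique molecular identifiers, which count molecules) per mouse. Library pairs shared 5 to 27 cell barcodes. Day 1 of ATV:4D9 stood apart from the other 4 groups: 56.2% to 60.7% of its cells held UMIs of 2 or more cell cycle genes, its median cell had 8201.5 to 8995.5 UMIs against 4975 to 5750 in ATV:RSV, and 87.3% to 93.5% of its cells were in deposited cluster 2. The median percent of mitochondrial UMIs per cell was 3.96 to 4.50 in its mice, 3.49 to 4.04 at day 7 and 3.11 to 3.38 in ATV:RSV, and its part in the results was not tested. The cells carry the label microglia, and P2ry12, a purinergic receptor that marks microglia, was at 2032 to 2073 CPM (counts per 1e6 UMIs) in ATV:RSV and 788 to 883 CPM at day 1 of ATV:4D9. Of 10 microglia markers, 8 fell and 1 rose at day 1, when 34.6% of all genes tested fell and 34.7% rose. Cells with UMIs of 2 or more markers of another cell type made up 4.55% of all cells.

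Levels of the 9 members spanned more than 3 orders of magnitude. In ATV:RSV, Itgb5 had 856 ± 12.2 CPM (SD, n = 3), followed by Itga6 with 189 ± 10.2, Itgb1 with 171 ± 5.93, Itgav with 89.1 ± 3.53, Itga9 with 43.6 ± 3.35 and Itgb3 with 17.3 ± 1.69 CPM. Itga4 (0.770 ± 0.131 CPM), Itgb7 (0.369 ± 0.0489 CPM) and Itgal (0.193 ± 0.0844 CPM) were near the detection limit, with 6 to 45 UMIs per ATV:RSV mouse. The mice of neighbouring members in this order did not overlap in ATV:RSV, Itga6 and Itgb1 being the closest. CPM is scaled by TMM, a factor that sets the trimmed mean of the log ratios between libraries to 0. A 3′ UMI counts 1 molecule whatever the transcript length, so that levels of different genes are compared without division by length. Itgb5 alone gave 62.6% ± 0.484 of the UMIs of the 9 members in ATV:RSV and 56.3% ± 2.61 at day 1 of ATV:4D9.

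**Figure D1:**
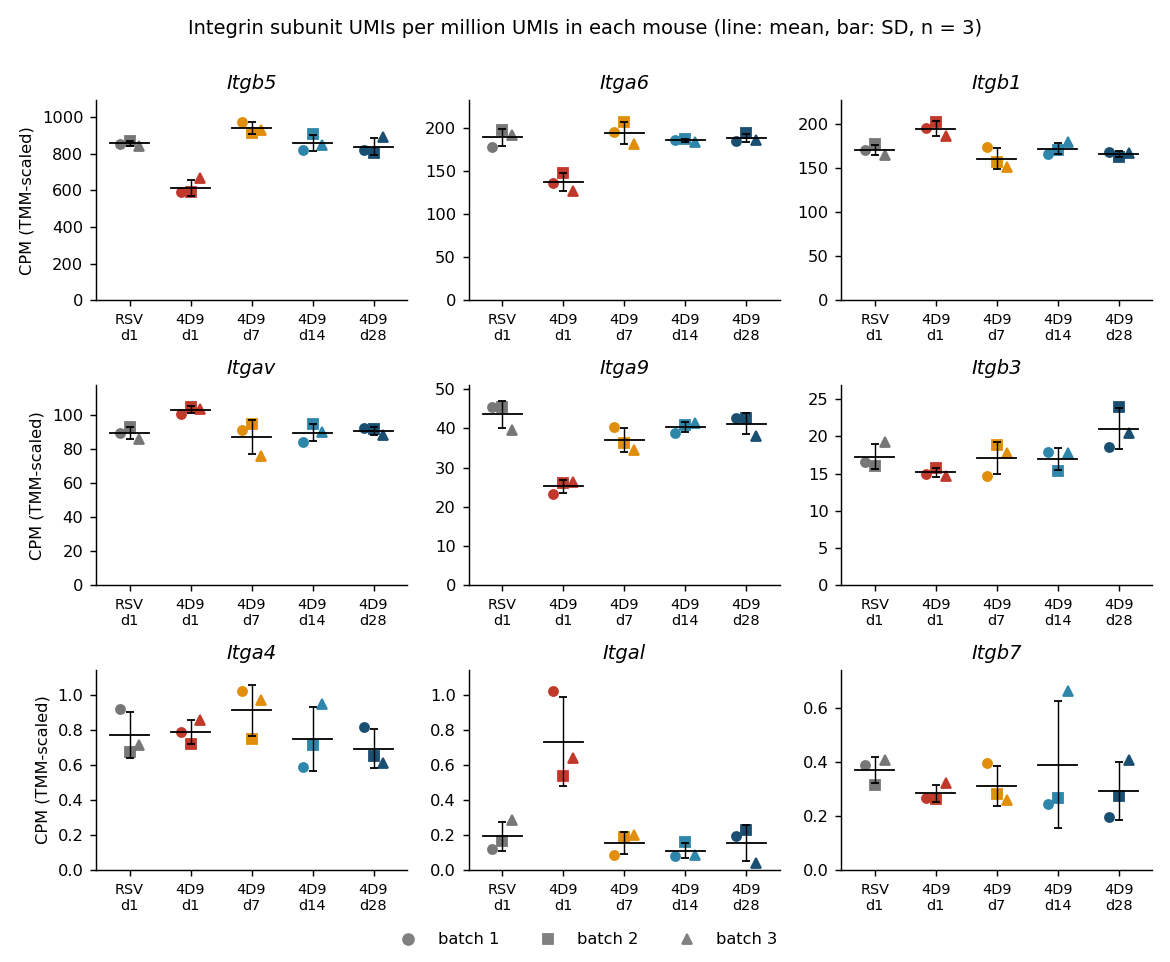
Level in CPM (UMIs scaled to 1e6 per mouse, TMM-scaled, linear axes from 0) of the 9 integrin subunits in each of 15 mice, with the mean (line) and SD (bar) of 3 mice per group and the batch as the symbol. On this scaling, the day 1 mice of ATV:4D9 lie below the ATV:RSV mice for Itgb5, Itga6 and Itga9, and above them for Itgal, Itgb1 and Itgav. They also lie below them, without overlap, for Itgb3, which was not called. Itgb1 and Itgav were not called with library size alone, and Itgb5 and Itga6 were not called per cell.

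One day after ATV:4D9, 6 of the 9 members changed against ATV:RSV at an adjusted p under 0.05 (limma-voom over 14260 genes), 3 higher and 3 lower. On the TMM scale Itgb5, Itga6 and Itga9 fell, while Itgal rose and Itgb1 and Itgav rose slightly. The falls of Itgb5 and Itga6 were not called per cell, and Itgb1 and Itgav were not called with library size alone. With TMM the test called 69.2% of all genes, 34.7% higher and 34.6% lower, so that a share of 6 in 9 was near that of all genes. Itgal passed the filter on low counts only through the day 1 mice, as 221 of the 14260 genes did, so that its calls and its part in these counts are given as a description. The median log2 fold change was -0.18 over the members and -0.05 over all genes. For how many of all genes the mice of these groups did not overlap was not counted. Where members are said not to overlap, this is therefore a description and no trait of the members. Within the 3 batches, day 1 minus ATV:RSV on the log2 scale was -0.96 to -0.59 for Itga9, -0.59 to -0.38 for Itga6, -0.56 to -0.34 for Itgb5, 0.17 to 0.20 for Itgb1, 0.18 to 0.27 for Itgav and 1.16 to 3.06 for Itgal, each with the sign of its pooled value.

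Among the partners of β1, Itga9, which pairs only with β1 and binds tenascin-C and osteopontin, showed the largest fall of the members. It was at 45.4, 45.6 and 39.7 CPM in the ATV:RSV mice and at 23.3, 26.2 and 26.3 CPM at day 1 of ATV:4D9. The groups did not overlap, and the log2 fold change was -0.79 ± 0.0753 (SE, adjusted p = 1.35e-07, limma-voom). Itga6, a laminin receptor subunit, was at 178, 198 and 192 CPM in ATV:RSV and at 137, 148 and 127 CPM at day 1, again with no overlap, a log2 fold change of -0.46 (adjusted p = 4.29e-06). Itgb1, the common beta subunit of collagen, laminin and fibronectin receptors, was at 170, 177 and 165 CPM in ATV:RSV and at 196, 203 and 186 CPM at day 1. Its groups did not overlap on the TMM scale, with a log2 fold change of 0.19 (adjusted p = 0.00529), but with library size alone its value was -0.05 (adjusted p = 0.431). Itga6 thus ranked above Itgb1 in every ATV:RSV mouse and below it in every day 1 mouse. There were 1.11 ± 0.0576 Itga6 UMIs per Itgb1 UMI in ATV:RSV and 0.705 ± 0.0238 at day 1, and 0.255 ± 0.0134 and 0.130 ± 0.0113 Itga9 UMIs per Itgb1 UMI. These ratios lie within a library and do not depend on its scaling.

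Among the αv integrins, Itgb5, which pairs with αv and binds vitronectin, was at 854, 869 and 844 CPM in ATV:RSV and at 591, 589 and 665 CPM at day 1. The groups lay far apart, with a log2 fold change of -0.48 (adjusted p = 1.33e-06, limma-voom). Itgav, the alpha subunit shared by these receptors, was at 89.0, 92.7 and 85.7 CPM in ATV:RSV and at 101, 105 and 103 CPM at day 1, a log2 fold change of 0.21 (adjusted p = 0.0137) that became -0.03 (adjusted p = 0.673) with library size alone. The Itgav call was also lost without ATV:RSV replicate 3 (adjusted p = 0.0545) and without the cells with 2 or more cell cycle genes (log2 fold change 0.13, adjusted p = 0.126). The count of Itgav UMIs per Itgb5 UMI went from 0.104 ± 0.00264 to 0.168 ± 0.0117, with no overlap between the mice. Itgb3, the other common αv partner, was at 16.6, 16.1 and 19.2 CPM in ATV:RSV and at 14.96, 15.8 and 14.7 CPM at day 1. Its groups did not overlap, but it did not pass the test (log2 fold change -0.18, adjusted p = 0.133), although library size alone gave a called value of -0.42 (adjusted p = 0.00261) and the per-cell scale 0.18 (adjusted p = 0.257).

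Of the leukocyte subunits, Itgal, the alpha subunit of LFA-1, rose at day 1. The ATV:RSV mice held 6, 7 and 12 Itgal UMIs and the day 1 mice 65, 33 and 30, which is 0.123, 0.169 and 0.286 CPM against 1.02, 0.539 and 0.642 CPM. The groups did not overlap. Of the 12 other mice, 2 reached the minimum of the filter for Itgal, where 3 were needed, so the gene was tested because of its day 1 level. With that limit, the log2 fold change was 1.93 ± 0.456 (adjusted p = 0.00141, limma-voom), and with no filter 1.96 (adjusted p = 0.00195). The thinned cells and the fits within clusters did not keep the gene. These are few molecules: without thinning, 0.119% ± 0.0444 of ATV:RSV cells and 0.484% ± 0.0987 of day 1 cells held an Itgal UMI. That difference was 0.365 percentage points, and 0.0872 with cells thinned to equal depth. Itga4, the alpha subunit of VLA-4, was at 0.920, 0.675 and 0.716 CPM in ATV:RSV and 0.786, 0.719 and 0.856 CPM at day 1 (log2 fold change 0.01, adjusted p = 0.958). Itgb7, which pairs with α4 and αE, was at 0.388, 0.314 and 0.406 CPM and 0.267, 0.261 and 0.321 CPM (log2 fold change -0.40, adjusted p = 0.334). Neither of these passed the test, and their groups overlapped, but Itgb7 was called without the cells with 2 or more cell cycle genes (-1.39, adjusted p = 0.0463).

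**Figure D2:**
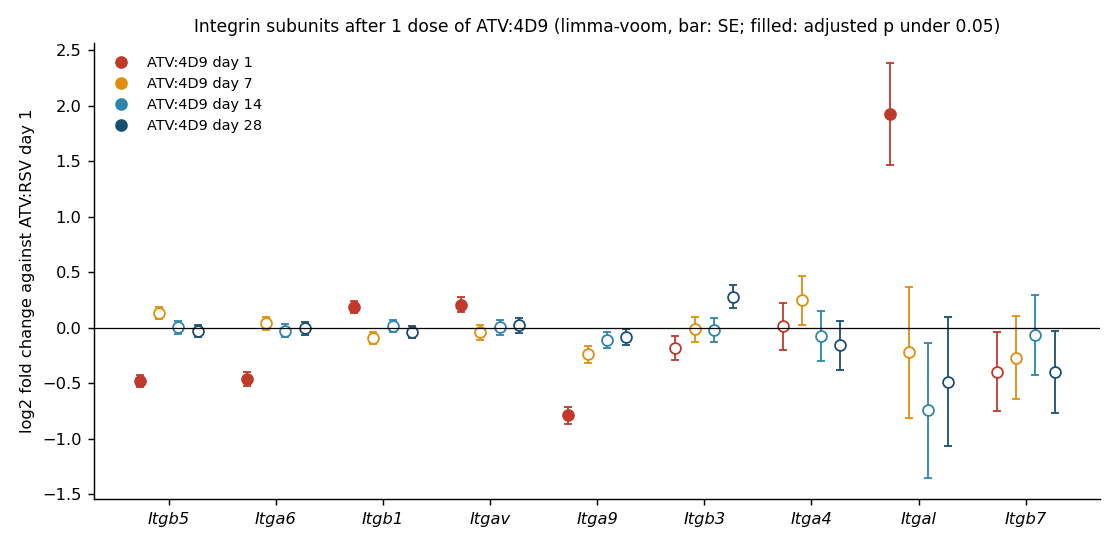
Log2 fold change (y axis, bar: SE) of each integrin subunit at days 1, 7, 14 and 28 of ATV:4D9 against the 3 ATV:RSV mice of day 1, from limma-voom. Filled points, adjusted p under 0.05, occur at day 1 for 6 members, where 69.2% of all genes were called. They occur at no later day, where 3.98%, 0.400% and 0% of all genes were called. Itgal was tested because of its day 1 level. The rises of Itgb1 and Itgav are not seen with library size alone and are larger per cell (0.55 and 0.57).

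Cells with markers of other types carried a large part of the UMIs of the 3 rare members. A cell was set aside for any UMI of such markers at full depth, and day 1 cells held more UMIs. The cells set aside made up 4.78% to 5.87% of day 1 cells and 4.30% to 4.94% of ATV:RSV cells. They are not matched for depth between groups, which limits the values without them, and the part of depth was not tested. The cells with 2 or more markers of another type held 23.2% of all Itga4 UMIs, 22.0% of Itgal and 25% of Itgb7 UMIs, against 6.64% to 7.23% for the other 6 members. At day 1 of ATV:4D9 they held 66 of 134 Itga4 UMIs (49.3%), 46 of them in 381 cells with border macrophage markers, against 20 of 103 (19.4%) in ATV:RSV. Without these cells, Itga4 was lower at day 1, with a log2 fold change of -0.68 (adjusted p = 0.0141), and so was Itgb7 (-1.17, adjusted p = 0.0204) after 23 of its 48 day 1 UMIs, in 7 cells, were left out. Of the Itgal UMIs they held 34 of 128 UMIs (26.6%) at day 1 and 3 of 25 (12%) in ATV:RSV. Summed monocyte markers, 5 of 5 detected in each group, were at 15.8 to 19.9 CPM at day 1 and at 4.25 to 10.9 CPM in ATV:RSV, but Plac8 alone made up most of the day 1 sum (13.3 to 16.6 CPM, against 0.844 to 2.11 in ATV:RSV), while Ccr2, the chemokine receptor that defines inflammatory monocytes, fell from 4.98 ± 2.63 to 1.91 ± 0.405 CPM (log2 fold change -1.28, adjusted p = 0.00377). Of the other 3 monocyte markers, Vcan was at 0.440 to 0.706 and 0.121 to 0.310 CPM with no overlap, while Ly6c2 (0.0642 to 0.550 and 0.0239 to 0.429) overlapped and Chil3 (0.0471 to 0.128 and 0.143 to 0.169) was lower at day 1. Border macrophage markers, 7 of 7 detected, summed to 19.8 to 29.7 CPM at day 1 and 16.2 to 19.6 CPM in ATV:RSV, with no overlap for Pf4 (9.11 to 13.4 and 4.15 to 6.79), Ms4a7 (2.12 to 2.65 and 0.501 to 1.21) and Cbr2 (1.34 to 2.03 and 0.811 to 0.965). Mrc1 (4.96 to 7.70 and 6.75 to 9.38), F13a1 (1.57 to 2.42 and 1.19 to 1.66), Cd163 and Lyve1 overlapped. Summed T cell markers were at 1.02 to 1.56 CPM at day 1 and 0.787 to 1.18 in ATV:RSV, and NK cell markers at 0.189 to 1.32 and 0.0724 to 0.348, both with overlap. B cell markers were lower at day 1 (25.1 to 26.8 and 27.6 to 34.2). Itgal, tested because of its day 1 level, was also higher at day 1 with the cells with markers of another type left out. The part of the remaining cells of other types was not tested.

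The scale decided how the abundant members read. Day 1 cells held more UMIs, and with the number of cells as the scale all genes had a median log2 fold change of 0.32, against -0.05 with TMM and -0.29 with library size alone, and 78.7%, 50.1% and 34.7% of the called genes were higher. Per 1000 cells, Itgb5 went from 5952, 5299 and 5454 UMIs in ATV:RSV to 5285, 4908 and 5184 at day 1, which did not overlap but did not pass the test (log2 fold change -0.12, adjusted p = 0.182). Itga6 went from 1242, 1209 and 1237 to 1224, 1235 and 992 UMIs per 1000 cells, with overlap (-0.10, adjusted p = 0.294). The falls of Itgb5 and Itga6 were called as shares of the UMIs and were not called as UMIs per cell. Itga9 fell on each scale, from 284 ± 30.5 to 211 ± 6.72 UMIs per 1000 cells (-0.42, adjusted p = 0.000596). Itgb1 rose from 1111 ± 66.0 to 1630 ± 160 and Itgav from 580 ± 35.7 to 859 ± 49.9 UMIs per 1000 cells (0.55 and 0.57, adjusted p = 8.23e-06 and 1.99e-06), both above the median of all genes on that scale. The 9 members together were at 8894 ± 483 UMIs per 1000 cells in ATV:RSV and 9117 ± 382 at day 1. Sums over cells cannot tell fewer cells with a gene from less of its RNA in each cell.

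**Figure D3:**
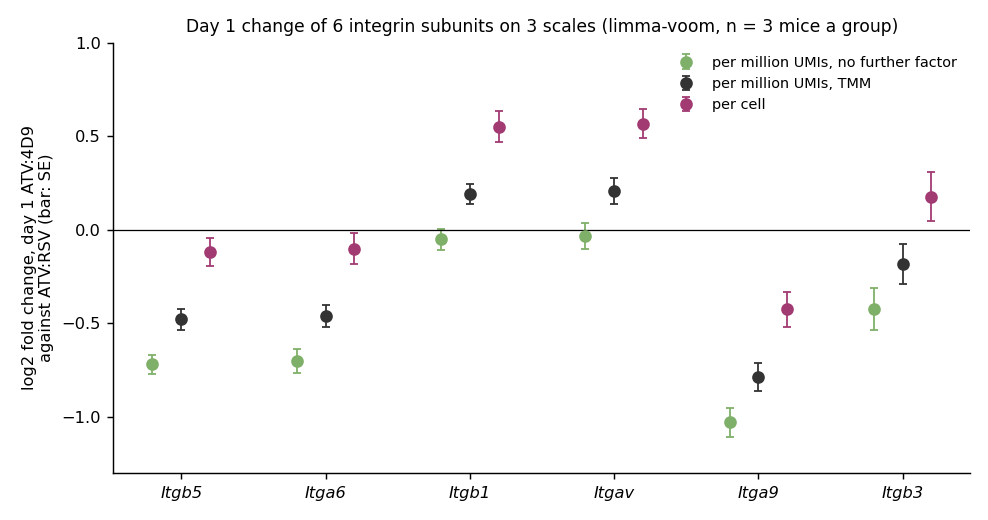
Log2 fold change at day 1 of ATV:4D9 against ATV:RSV (y axis, bar: SE, limma-voom, 3 mice a group) of 6 integrin subunits with library size alone, TMM and the number of cells as the scale. Itga9 is below 0 on all 3 scales, while Itgb1, Itgav and Itgb3 change sign between scales and Itgb5 and Itga6 lie near 0 per cell.

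Shares of cells with a UMI were compared after each cell was thinned to 3385 UMIs, which left out 10204 cells with fewer. Left out were 8.69% to 17.8% of cells in the ATV:RSV mice and 3.93% to 5.79% in the day 1 mice. The shares are thus over unequal parts of the groups. Itgb5 was detected in 94.1% ± 0.217 of cells in ATV:RSV and 81.9% ± 1.30 at day 1 (97.2% and 95.4% unthinned). Itga6 was detected in 46.6% ± 1.45 and 33.4% ± 2.41, and Itga9 in 14.2% ± 1.13 and 7.53% ± 0.381. At equal depth a smaller share of the day 1 cells kept thus held a UMI of these genes, and for each of them the mice of the groups did not overlap. Itgb1 was detected in 44.9% ± 0.849 and 44.3% ± 1.72 of cells and Itgav in 26.7% ± 0.908 and 26.9% ± 0.446, with overlap, although unthinned the shares were 62.0% and 73.7% for Itgb1 and 40.7% and 52.5% for Itgav. All deposited cells are labelled microglia, so that the share free RNA gives in a cell type without these genes could not be measured. For Itga4, Itgal and Itgb7, with at most 0.340% of thinned cells in any mouse, a share cannot be told from such a background.

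At day 7, limma-voom called 0 of 9 members, with 2 at an unadjusted p under 0.05, and 3.98% of all genes, or 7.11% with the batch as a block. Of all 14260 genes, 2336 were at an unadjusted p under 0.05 in that limma-voom fit. edgeR also called 0 of 9 members, and 4.45% of all genes, and DESeq2 0 of the 7 members to which it gave an adjusted p, and 6.11% of all genes. Itgb5 was at 974, 914 and 930 CPM, above every ATV:RSV mouse, with a log2 fold change of 0.13 (adjusted p = 0.233). Itga9 was at 40.5, 36.3 and 34.4 CPM, overlapping ATV:RSV (-0.24, adjusted p = 0.0983), and was called without ATV:RSV replicate 3 (-0.30, adjusted p = 0.0476) and with library size alone (-0.33, adjusted p = 0.0161). At day 14, limma-voom called 0 of 9 members, 0 at an unadjusted p under 0.05, and 0.400% of all genes. edgeR called 0 members and 0.414% of all genes, and DESeq2 0 of 8 members with an adjusted p and 0.926% of all genes. At day 28 the 3 tools called 0 of 9 members, 1 of them at an unadjusted p under 0.05 by limma-voom, which called 0% of all genes, with 571 at an unadjusted p under 0.05, and 14 genes were called by DESeq2. The 1 member was Itgb3, at 18.6, 24.0 and 20.5 CPM against 16.6, 16.1 and 19.2 CPM in ATV:RSV (log2 fold change 0.28, unadjusted p = 0.0163, adjusted p = 1). Over all 5 groups, the moderated F test called 7 of 9 members, where it called 66.5% of all genes, and Itga4 and Itgb7 were those not called. Itgal, tested because of its day 1 level, is in this count as a description. Itga4 was called without the cells with markers of another type (adjusted p = 0.0111) and without those with cell cycle genes (adjusted p = 0.0439). The F call of Itgb3 (adjusted p = 0.0137) was lost without the day 28 mouse at 24.0 CPM (adjusted p = 0.0738), and that of Itgav (adjusted p = 0.0319) without any 1 of the day 1 mice (adjusted p from 0.06 to 0.125). With the number of cells as the scale Itga6 and Itgb5 lost their F calls, and with library size alone Itgav and Itgb1 lost theirs.

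Day 7 was compared with day 1 of ATV:4D9 directly, which uses no control mouse. The same 6 members changed, each in the direction opposite to day 1, where the test called 66.9% of all genes, 33.0% higher and 33.9% lower. Itgb5 was higher at day 7 by a log2 fold change of 0.61 (adjusted p = 8.65e-08), Itga9 by 0.55 (adjusted p = 1.12e-05) and Itga6 by 0.50 (adjusted p = 1.93e-06). Itgal, tested because of its day 1 level and counted here as a description, was lower by 2.15 on the log2 scale. It had 3, 6 and 10 UMIs in the day 7 mice. Itgb1 fell by 0.28 (adjusted p = 0.000274) and Itgav by 0.25 (adjusted p = 0.00474), and with library size alone these were -0.13 (adjusted p = 0.05) and -0.10 (adjusted p = 0.205). With the number of cells as the scale 3 members were called, Itgal, Itgb1 and Itgav, while Itgb5 was at 0.15 (adjusted p = 0.0945), Itga9 at 0.09 (adjusted p = 0.444) and Itga6 at 0.04 (adjusted p = 0.708). Without the cells with markers of another type, Itga4 (1.00, adjusted p = 0.000884) and Itgb7 (1.05, adjusted p = 0.0409) were also called, and Itga4 also without those with cell cycle genes (1.06, adjusted p = 0.00882). The opposite directions follow in part from day 1 being in both comparisons.

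The deposited clusters, made by the authors from these cells, differed in their integrin levels, given here as description with no test and as CPM within the UMIs of the cluster's own cells. In the 12 mice outside day 1 of ATV:4D9, cluster 1 was above cluster 0 in 12 of 12 mice for Itga6 (227 and 183 on average), Itga9 (47.2 and 39.9) and Itgb1 (198 and 162), and in 11 of 12 for Itgav and Itgb3. Itgb5 went against this order, being lower in cluster 1 in 11 of 12 mice, by a median log2 ratio of -0.03. Cluster 2, which holds most cells of day 1, was below cluster 0 in 12 of 12 of these mice for Itga6 (137 and 183), Itga9 (25.5 and 39.9) and Itgb5 (771 and 906). Itgav was lower in cluster 2 in 11 and Itgb3 in 10 of these 12 mice, and Itgb1 in 9 of 12 with a median log2 ratio of -0.02. The 3 rare members showed no such order, on few UMIs in the 74 to 245 cells that cluster 2 held in each of these mice. Itga4 was higher in cluster 2 in 8 of these 12 mice (3.35 and 0.739 CPM on average), Itgal in 6 (0.700 and 0.140) and Itgb7 in 5 (2.69 and 0.291). In day 1 mice, cluster 2 was at 0.720 CPM for Itga4, 0.690 for Itgal and 0.256 for Itgb7. Itga6, Itga9 and Itgb5, which fell at day 1 on the TMM scale, were thus lower in cluster 2 in mice of the other groups too. So, in most mice, were Itgav and Itgb1, called higher at day 1 on that scale, and Itgb3, not called on it.

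Day 1 was also compared with ATV:RSV within each cluster, on fewer cells. In cluster 0, with 211 to 383 cells per day 1 mouse, Itgb5 was at 915 ± 10.5 in ATV:RSV and 819 ± 51.3 at day 1, Itga6 at 187 ± 14.6 and 180 ± 22.6, and Itgav at 90.1 ± 3.05 and 111 ± 3.05. The fit on cluster 0 alone called 0 of 8 members tested and 5.09% of all genes, and that on cluster 1 alone 0 of 6 and 9.18%. The fit on cluster 2 alone, chosen after seeing the data and with 76 to 165 ATV:RSV cells per mouse, called 3 of 6 members and 36.8% of all genes. There Itgb5 went from 725, 797 and 791 in ATV:RSV to 517, 519 and 575 at day 1 (log2 fold change -0.45, adjusted p = 0.000124), Itgav changed by 0.36 (adjusted p = 0.0135) and Itgb1 by 0.24 (adjusted p = 0.0372). Itga6 (-0.06, adjusted p = 0.715) and Itga9 (-0.25, adjusted p = 0.299) did not pass there. Itgb5 was thus lower at day 1 in the fit on cluster 2. For Itga6 and Itga9 no difference was called inside a cluster at these numbers of cells (Itga6 -0.01 in cluster 0 and 0.07 in cluster 1, Itga9 -0.24 and -0.09). The clusters were made from the RNA of these same cells, so that cells sharing a cluster were already alike. Most day 1 cells were in cluster 2, and most ATV:RSV cells were not. These fits therefore cannot tell a change within cells from a shift of cells between clusters, which was not tested.

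**Figure D4:**
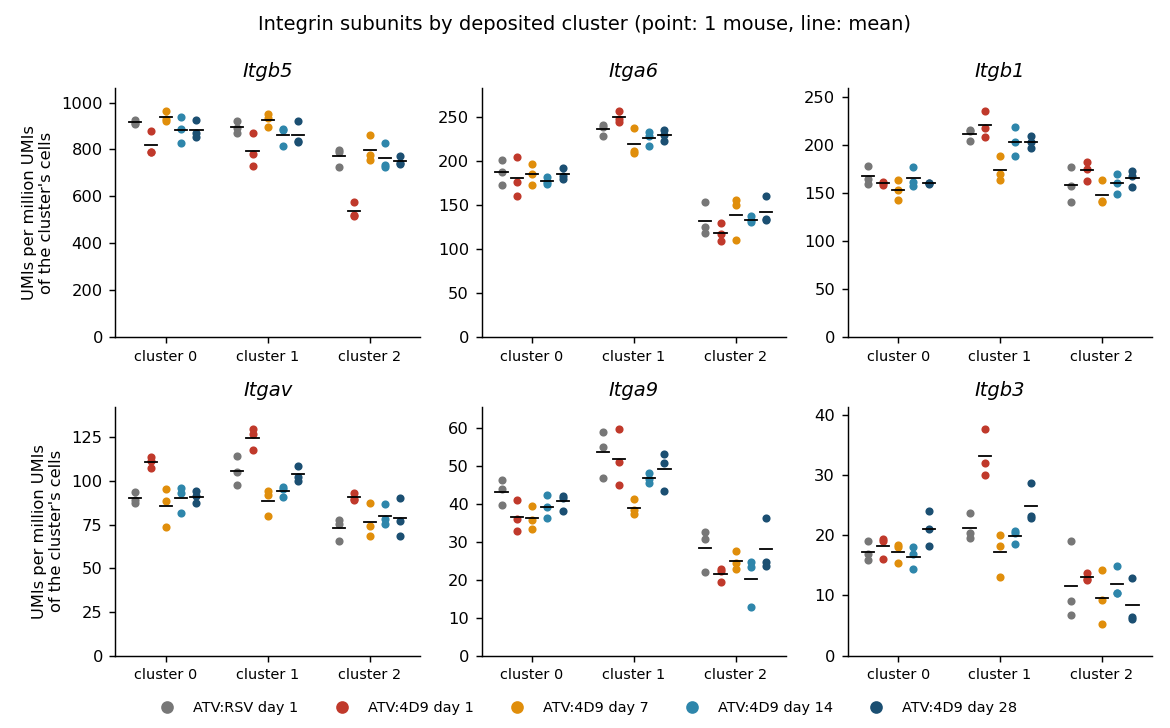
CPM within the UMIs of each deposited cluster's cells (linear axes from 0) for 6 integrin subunits, with 1 point per mouse, coloured by group, and the mean as a line. Itga6, Itga9 and Itgb5 are lower in cluster 2 than in cluster 0 in every mouse, and within cluster 2 the day 1 mice of ATV:4D9 lie below the other groups for Itgb5.

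For 5 pairs of subunits detected together in 1515 or more cells, both were found in the same cell about as often as their separate shares give. At 3385 UMIs per cell, Itga6 and Itgb1 were detected together in 21.4% ± 0.973 of ATV:RSV cells and 15.4% ± 1.33 of day 1 cells, and over the 15 mice the observed share was a median of 1.02 times the product of both shares (1.00 to 1.08). The median was 1.04 for Itgav with Itgb1, 1.05 for Itga9 with Itgb1, 1.08 for Itgav with Itgb3 and 1.00 for Itgav with Itgb5. Itgav and Itgb5 were found together in 25.2% ± 0.837 of ATV:RSV cells and 22.4% ± 0.245 of day 1 cells. The other 4 pairs tried were seen in few cells. Itga4 with Itgb1 was seen in 83 cells against 87.7 given by the separate shares (ratio 0.368 to 1.65 over the mice), Itgal with Itgb2 in 31 against 27.5, Itgav with Itgb8 in 9 against 10.7 and Itga4 with Itgb7 in 3 against 0.217.

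The other integrin subunits were read beside the members. Of 18 on the list, 8 passed the filter on low counts, and at day 1 of these 3 rose and 2 fell, 5 of 8 called where 69.2% of all genes were. Itgax, the alpha subunit of complement receptor 4, rose from 3.45 ± 0.462 to 24.6 ± 1.21 CPM (log2 fold change 2.84, adjusted p = 1e-12) and Itga5, the fibronectin receptor subunit, from 7.25 ± 0.330 to 18.4 ± 2.44 CPM (1.32, adjusted p = 2.4e-08). Itgae, the αE subunit that pairs with β7, fell from 2.13 ± 0.601 to 0.855 ± 0.217 CPM (-1.32, adjusted p = 0.000452). Itgb2 (0.13, adjusted p = 0.0234) and Itgam (-0.19, adjusted p = 0.00174) moved little. With library size alone Itgb2 was called lower (-0.11, adjusted p = 0.0367), its call was lost without ATV:RSV replicate 2, day 1 replicate 1 or day 1 replicate 3, and Itgam was at 0.17 per cell (adjusted p = 0.076) and lost its call without the cells with cell cycle genes. Inside clusters, Itga5 was called in none of the 3, Itgae in neither cluster 0 nor cluster 1, and Itgax in cluster 0 (1.41, adjusted p = 0.00237) but not in cluster 1 (1.04, adjusted p = 0.166) or cluster 2 (-0.60, adjusted p = 0.11). Itgb2 (0.06, 0.16 and -0.09 in clusters 0, 1 and 2) and Itgam (0.15, 0.20 and -0.03) were not called in any of the 3 either. Itgb8, the αv partner that activates TGF-β, had 1 to 12 UMIs per mouse and did not pass. At day 7, Itgax was still above ATV:RSV, at 9.11 ± 0.589 CPM (1.41, adjusted p = 1.34e-06), the 1 subunit of the 8 called then, when 3.98% of all genes were.

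Genes that act with integrins were read against the 69.2% of all genes called at day 1. Of 35 activation and adhesion genes, 10 rose and 13 fell at day 1. Flna, the actin crosslinker filamin A, rose from 20.3 ± 0.891 to 96.1 ± 9.20 CPM (log2 fold change 2.24, adjusted p = 6.12e-13) and Fgr, a Src family kinase, rose by 2.07 (adjusted p = 7.22e-10), while Pxn, which encodes paxillin, fell by 0.89 (adjusted p = 2.42e-10) and Rassf5, a Rap1 effector, by 0.73 (adjusted p = 2.87e-08). Of 15 ligand genes tested, out of 25, 8 rose and 2 fell. Vcam1, the ligand of α4β1, rose from 12.1 ± 2.08 to 82.1 ± 10.7 CPM (2.77, adjusted p = 4.17e-10), and Lamb2, a laminin chain, by 0.83 (adjusted p = 2.3e-07). Tgfb1, which αv integrins can activate, fell by 0.30 (adjusted p = 2.86e-05) and Mfge8, an RGD protein that bridges dying cells to αv integrins, fell by 0.47 (adjusted p = 7.48e-05), neither being called with the number of cells as the scale, on which Tgfb1 changed sign. Of 12 membrane partners, 7 rose and 3 fell, among them Lgals3 (2.95, adjusted p = 6.29e-09), Cd36 (2.86, adjusted p = 2.93e-08), Cd37 (-0.49, adjusted p = 5.37e-07) and Cd82 (-0.50, adjusted p = 5.64e-07). Per cell, Cd37 and Cd82 were not called (-0.13 and -0.14, adjusted p = 0.164 and 0.198), and inside cluster 2 Lgals3 was lower at day 1 (-1.92, adjusted p = 0.000299) and Fgr was at -0.44 (adjusted p = 0.294). Rassf5 was not called inside any of the 3 clusters (-0.31, -0.28 and -0.28, adjusted p from 0.119 to 0.165), Pxn inside neither cluster 0 nor cluster 1 (-0.33 and -0.25, adjusted p = 0.0785 and 0.243) and Lamb2 inside neither of these (0.88 and 0.54, adjusted p = 0.068 and 0.225). Vcam1 and Tgfb1 were also not called inside cluster 0, nor Lgals3, Mfge8 and Cd37 inside clusters 0 and 1, nor Cd82 inside any of the 3. At day 7, when 3.98% of all genes were called, the calls were 2 of 35, 1 of 15 and 4 of 12, and included Fgr (1.03, adjusted p = 0.000326), Vcam1 (1.33, adjusted p = 0.000163), Cd63 (0.50, adjusted p = 0.000111) and Cd151 (-0.30, adjusted p = 0.0035). Madcam1, the ligand of α4β7, named here after its values were seen, was at 0.0957 ± 0.0411 CPM in ATV:RSV, a few UMIs per mouse, and at 7.69 ± 2.06 CPM at day 1.

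Across the 15 mice, members were set beside the genes whose log2 CPM ran most closely with theirs, among about 8890 genes with a mean of at least 5 CPM. The day 1 mice stand apart for most of these genes, and the values are a description of that shared pattern. Itga6 was closest to Mark3 (Pearson r = 0.984) and Slc25a23 (0.978), Itga9 to Ube2q2 and Rab3gap1 (0.978 each), and Itgb5 to Sik3 (0.970) and Capn3 (0.968). Itgb1 was closest to Tln1 (0.934), which encodes talin, and Poglut3 (0.927), Itgav to U2surp (0.905) and Taf1 (0.898), Itgb3 to Adamts16 (0.887) and Btbd6 (0.872), and Itgal to Qpctl (0.919) and Pigu (0.912). Itga4 (Arhgap19, 0.726, and Eral1, 0.699) and Itgb7 (Micu2, 0.689, and Mttp, 0.681) had no gene as close.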

How the data were processed

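UMI counts by gene and cell, without normalization, were deposited together with a table that gives each cell its mouse, cluster and UMI count. The authors mapped reads to mm10 with Cell Ranger (4.0.0 in the submitters' processing notes, while the study's methods name a later version) and analysed cells in Seurat, and the deposited table also holds the percent of mitochondrial UMIs that the authors computed for each cell. Cell filters and doublet removal are not given in the sources used here, and no doublet caller was run. Groups came from the labels, where each of 3 batches holds 1 mouse of every condition. Another control animal named there was not analysed here. Members, gene lists and motifs were chosen with earlier results of these data known. Counts were summed per mouse, passed through filterByExpr (minimum count 10, minimum total 15) and, after TMM scaling, entered limma-voom (R 4.3.3 with limma 3.58.1 and edgeR 4.0.16) as group means over 15 mice, with Benjamini-Hochberg adjustment over 14260 genes. The fit was first tested on simulated data. Alternatives were edgeR's quasi-likelihood test, DESeq2 1.42.0, other scales, no filter, a batch block, subsets of cells and leaving out each mouse. Batch pairs the replicate numbers, and deviations from group means correlated by 0.0539 on average within and -0.0267 between batches. Named genes were the members, Itgb2, Itgb8, Itgam and Itgax, the 2 highest and 2 lowest called genes of each other list at day 1 and the highest and lowest at day 7 (at least 10 UMIs in each of 6 mice), and the 2 genes most correlated with each member.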

Additional observations from a re-analysis of the deposited data

Results flagged for a closer look

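Members whose change differed between day 7 and day 1 of ATV:4D9 were picked out, by the direct comparison of these days (limma-voom, 3 mice each). The log2 fold change of day 7 against day 1 was 0.50 for Itga6, 0.55 for Itga9 and 0.61 for Itgb5, and it was -2.15 for Itgal (tested because of its day 1 level), -0.25 for Itgav and -0.28 for Itgb1. Groups of 3 mice are too small for a check of single mice that lie far from the others.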

How the results depend on the processing

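At day 1 the count of members called, 6 of 9, was 0 with cluster 0 or cluster 1 alone and 3 with cluster 2 alone, where fewer genes and cells were tested, 4 per cell (Itga6 and Itgb5 lost), 5 with library size alone and with thinned cells, 8 without cells with markers of another type, and 5 to 6 without each mouse. Of all genes, 69.2% were called in the main fit, and 5.09%, 9.18% and 36.8% with clusters 0, 1 and 2 alone. The share was 62.7% per cell, 74.7% with library size alone, 65.6% with thinned cells and 69.4% without cells with markers of another type. Without each mouse it was 64.1% to 66.1%. At day 7 against ATV:RSV the count of 0 became 1 with library size alone, with thinned cells and with cluster 1 alone, and was 0 to 1 without each mouse. Of all genes, 8.41%, 3.97% and 5.76% were called with library size alone, with thinned cells and with cluster 1 alone, and 3.98% in the main fit. At day 7 against day 1 the count of 6 was 3 per cell, 1 with cluster 0, 3 with cluster 1 and 3 with cluster 2 alone, and over the 5 groups the count of 7 was 1, 3 and 1 with clusters 0, 1 and 2 alone. Without cells with markers of another type both were 8, and without each mouse both were 6 to 7. At day 7 against day 1, 66.9% of all genes were called in the main fit, 63.2% per cell and 67.3% without cells with markers of another type. The share was 6.41%, 9.88% and 42.7% with clusters 0, 1 and 2 alone. At days 14 and 28 the count of members called was 0 in each of 20 alternatives. With the replicate block (batch) the counts were 6, 0, 0, 0, 6 and 7, and the block changed no call of a member. The clusters were made from these same cells, so that the counts within clusters cannot tell a change within cells from a shift between clusters. The cluster 2 fit was added after seeing the data. Itgal, tested because of its day 1 level, is in the counts of 6 and 7 as a description. With thinned cells the filter did not keep it. The share of all genes called over the 5 groups with clusters 0, 1 and 2 alone is not given here.

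Directions of called members that turned at day 1 were those of Itgav (-0.034) and Itgb1 (-0.051) with library size alone, Itgb1 with cluster 0 (-0.034), and Itga6 with cluster 1 (0.072). Of members not called, Itga4 (0.01) turned in 8 alternatives, among them without cells with markers of another type (adjusted p = 0.0141), Itgb3 per cell (0.18) and with clusters 0, 1 and 2 (0.14, 0.58 and 0.42), and Itgb7 with cluster 0 (0.45). At day 7 against day 1, Itga6 (-0.049), Itga9 (-0.23) and Itgb3 (adjusted p = 0.0172) turned with cluster 1 alone, and of members not called also Itgb3 with clusters 0 and 2, Itgb7 with cluster 0 or without day 7 replicate 1, and Itga4, Itgb3 and Itgb7 per cell. The cause was not tested, except that a change of scale moves all genes of a mouse by 1 factor.

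The day 1 minus ATV:RSV share of cells with a UMI was, thinned and unthinned, -13.1 and -2.53 percentage points for Itga6, -6.70 and -4.93 for Itga9, -12.3 and -1.75 for Itgb5, 0.0872 and 0.365 for Itgal, 0.185 and 11.9 for Itgav, -0.601 and 11.7 for Itgb1, -1.18 and 1.29 for Itgb3 and -0.00519 and 0.0835 for Itga4. Genes called at day 7 against ATV:RSV, 568, ranged from 59 (cluster 2 alone) to 1199 (library size alone), and at day 14, 57, from 0 to 141. Itga4, Itgal and Itgb7, with 2 to 65 UMIs per mouse, limit the precision of their values most.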
